A study of Oryza sativa Japonica Group with 3 samples.

Results

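The genes described here encode subunits of photosystem II and the carriers that pass its electrons on to NADP in the chloroplast. They are 10 nuclear loci of rice (Oryza sativa, Japonica group), taken from a list of locus identifiers among the 55759 annotated loci of the deposited tables. The names used for them come with that list, since the tables pair no locus with a gene name and none of the 10 identifiers matched the reference gene table. Messenger RNA was sequenced from whole seedlings of cultivar Xindao-18, grown at 28 °C on moist filter paper under 12 h light and 12 h dark, and collected after 96 h. The control seeds received no ions. The low fluence library mixed RNA of seedlings from seeds implanted with 1 and 2 in units of 1e+17 nitrogen ions per square centimetre, which the labels describe as without significant damage. The high fluence library mixed RNA of those given 6 and 8 in the same unit, described as significantly damaged. The labels print the exponent on the line, and it is taken here to mean 1e+17. Each RNA pool came from 50 buds of similar height, and each irradiated library holds 10 µg from each of its pools. Every group therefore has 1 library without a replicate, so differences are given as values, with no test and no p-value. In whole seedlings, fewer green cells and less RNA per green cell cannot be told apart.

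Photosystem II splits water with light energy, at a manganese cluster on the lumen side of the thylakoid membrane that extrinsic proteins help to stabilise. Its electrons reach the cytochrome b6f complex, then plastocyanin, photosystem I, ferredoxin and finally ferredoxin-NADP reductase (FNR), which makes the NADPH used for carbon fixation. Seedlings build this chain as they turn green, and in leaves its messages are usually among the more abundant ones. The oxygen-evolving side is represented here by PsbO, which stabilises the manganese cluster, by PsbP, which helps retain its calcium and chloride, and by PsbR, a small subunit that helps the extrinsic proteins to bind. PsbS1 and PsbS2 are copies of PsbS, which switches the antenna to dissipating excess light as heat. PetC is the Rieske iron-sulfur protein of the cytochrome b6f complex, and plastocyanin, ferredoxin 1, leaf FNR1 and leaf FNR2 complete the list.

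All 10 genes were listed above 0 in the 3 libraries, and as deposited their summed level was highest at low fluence. Their summed FPKM (sequenced fragments per kilobase of transcript, scaled to library size) was 1002 in control seedlings, 1725 after low and 1160 after high fluence. This was 0.165% of the FPKM sum of annotated loci in control seedlings, 0.294% after low and 0.219% after high fluence. At high fluence the genes differed from each other. The message of PsbR stood at less of its control level than any other of the 10. Those of the leaf FNRs stood highest relative to control. With an assembled unit of no gene assignment listed beside it added, leaf FNR2 had a log2 ratio to control of 0.42, beside 0.43 for plastocyanin. With each library scaled to its FPKM sum over all transcripts, of which annotated loci make up 20.2% in control seedlings, 17.7% after low and 32.0% after high fluence, the highest library turned: the sums of the 10 genes were then 1002, 1563 and 2110. Averaged over the 3 libraries, 8 genes reached 10 FPKM, and PsbS1 and PsbS2 lay below it. The shares of all annotated loci given below are of the 9265 loci that reached this mean. PsbS1 and PsbS2 are thus counted among the 10 genes but not among those loci.

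**Figure D1:**
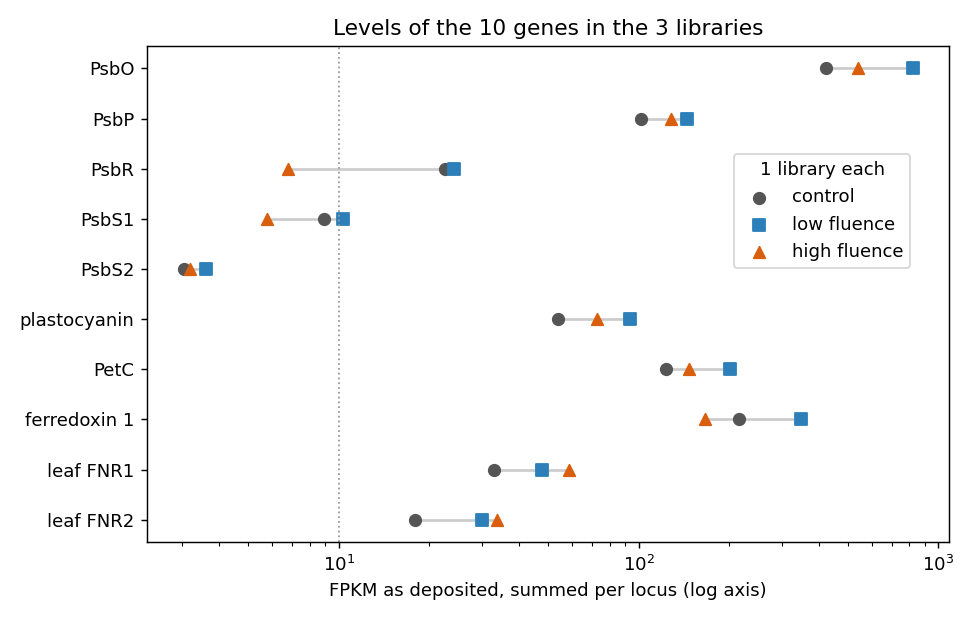
Level of each gene in each library, in FPKM on a log axis, with 1 library per group and a dotted line at 10 FPKM. PsbO is highest in every library, from 421 to 822 FPKM, and PsbS2 lowest, from 3.04 to 3.60 FPKM.

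Among the oxygen-evolving proteins, PsbO (LOC_Os01g31690, chromosome 1) had the highest level of the 10 genes, at 421 FPKM in control seedlings, 822 after low and 537 after high fluence. Among annotated loci it ranked 122 in control seedlings, 36 after low and 51 after high fluence. On the scale of FPKM + 1, on which all folds are given, it stood 1.95-fold above control at low fluence, a ratio exceeded by few loci, since 98.9% of annotated loci had a lower one. At high fluence it stood 1.27-fold above control. PsbP (LOC_Os07g04840, chromosome 7) stood at 102 FPKM in control seedlings, 145 after low and 129 after high fluence, or 1.42-fold and 1.26-fold above control. As deposited, both genes thus had the order low fluence, high fluence, control. With equal sums over all transcripts, high fluence lay above low fluence, at log2 ratios of 0.39 for PsbO and 0.83 for PsbP. PsbO exceeded PsbP in FPKM by 4.13 times in control seedlings, 5.68 times after low and 4.18 times after high fluence.

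PsbR (LOC_Os07g05360, chromosome 7) departed from PsbO and PsbP. Its level was 22.6 FPKM in control seedlings, 24.2 after low and 6.77 after high fluence. The control and low fluence libraries lay close together and the high fluence library was low, 3.04-fold below control. Only 1.42% of annotated loci had a lower ratio of high fluence to control. The level of PsbO relative to that of PsbR was 18.6 in control seedlings, 33.9 after low and 79.4 after high fluence. A minor transcript of PsbR had 0.331 FPKM after high fluence and was listed at 0 in the other libraries, so nearly all of its level lay in the other transcript.

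The PsbS copies had the lowest levels of the list in each library. PsbS1 (LOC_Os01g64960, chromosome 1) stood at 8.92 FPKM in control seedlings, 10.3 after low and 5.75 after high fluence. PsbS2 (LOC_Os04g59440, chromosome 4) stood at 3.04, 3.60 and 3.19 FPKM in the same order. As deposited, the libraries lay close together for PsbS2, within 1.14-fold, whereas the high fluence library was the lowest for PsbS1, 1.47-fold below control. The level of PsbS1 relative to PsbS2 was 2.94 in control seedlings, 2.86 after low and 1.80 after high fluence. Copies of a gene can share reads, and the counting of such reads is not described in the sources used here. An assembled unit without a gene assignment, CUFF.9195, is listed between PsbS2 and the next locus, at 9.77, 11.2 and 12.5 FPKM. Adding it to PsbS2 gave 12.8 FPKM in control seedlings, 14.8 after low and 15.7 after high fluence, which put high fluence above low fluence.

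As deposited, the carriers between the photosystems followed the order of PsbO and PsbP. PetC (LOC_Os07g37030, chromosome 7) stood at 124 FPKM in control seedlings, 202 after low and 147 after high fluence. Plastocyanin (LOC_Os06g01210, chromosome 6), the copper protein that carries electrons to photosystem I, stood at 53.7, 93.8 and 72.4 FPKM. Both were highest at low fluence and lowest in the control. With equal sums over all transcripts, high fluence lay above low fluence, at log2 ratios of 0.55 for PetC and 0.63 for plastocyanin. PetC was 1.63-fold above control at low fluence and 1.19-fold at high fluence, and plastocyanin 1.73-fold and 1.34-fold. Their levels moved nearly in proportion: the FPKM of PetC was 2.30 times that of plastocyanin in control seedlings, 2.15 times after low and 2.03 times after high fluence.

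On the acceptor side of photosystem I, ferredoxin 1 and the leaf FNRs parted at high fluence. Ferredoxin 1 (LOC_Os08g01380, chromosome 8), which receives the electrons of photosystem I, stood at 216 FPKM in control seedlings, 347 after low and 167 after high fluence. It was the second most abundant of the 10 messages in each library. It was 1.60-fold above control at low fluence, 1.29-fold below control at high fluence and 2.07-fold lower after high than after low fluence.

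Leaf FNR1 (LOC_Os06g01850, chromosome 6) stood at 33.0 FPKM in control seedlings, 47.6 after low and 58.5 after high fluence. Leaf FNR2 (LOC_Os02g01340, chromosome 2) stood at 17.9, 30.0 and 33.7 FPKM. These were the only genes of the 10 with their highest deposited level at high fluence, and both irradiated libraries lay above the control. Leaf FNR1 was 1.43-fold above control at low fluence and 1.75-fold at high fluence, and leaf FNR2 1.64-fold and 1.83-fold. At high fluence, 95.9% of annotated loci had a lower ratio to control than leaf FNR1, and 96.6% a lower one than leaf FNR2. The level of leaf FNR1 relative to leaf FNR2 was 1.84 in control seedlings, 1.59 after low and 1.74 after high fluence. That of ferredoxin 1 relative to leaf FNR1 was 6.55, 7.29 and 2.85.

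Assembled units are listed directly beside both reductases and may overlap them, since the tables give no coordinates. CUFF.10339, listed between leaf FNR1 and the locus numbered just before it, stood at 72.4 FPKM in control seedlings, 134 after low and 147 after high fluence. It had the same order of libraries as leaf FNR1, and their sums were 105, 181 and 206 FPKM. CUFF.5393, listed after leaf FNR2, stood at 53.3, 71.3 and 62.2 FPKM. With it, leaf FNR2 had a log2 ratio to control of 0.42 at high fluence in place of 0.87, and low fluence became the highest library. The locus on the other side of CUFF.5393 has a distant number, so its nearness to leaf FNR2 is unknown. The remaining unit of this kind, CUFF.13340 beside ferredoxin 1, had at most 4.05 FPKM.

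**Figure D2:**
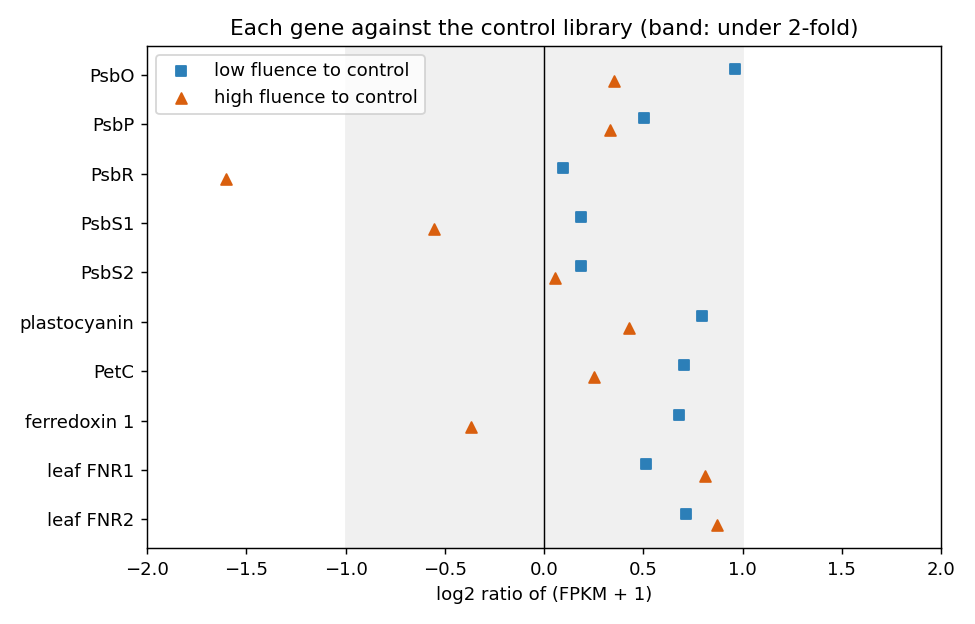
Log2 ratio of (FPKM + 1) of each gene to the control library, at low fluence (squares) and high fluence (triangles), with a grey band for differences under 2-fold. As deposited, all squares lie right of 0 and inside the band (PsbR moves to -0.04 with equal sums over all transcripts), and PsbR at high fluence, at -1.60, is the only point outside it.

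Comparing low fluence with control asked how seedlings described as without significant damage differed from untreated ones. All 10 genes were higher at low fluence, with log2 ratios from 0.10 for PsbR to 0.96 for PsbO and a median of 0.60. Of annotated loci, 40.6% were higher by any amount, and their median log2 ratio was -0.07. None of the 10 differed by 2-fold, where 0.928% of annotated loci lay 2-fold or more above control and 1.08% lay 2-fold or more below. With median-of-ratios scaling and with equal sums over annotated loci, PsbO just passed 2-fold, at a log2 ratio of 1.01. Of annotated loci, 1.13% and 1.14% were then at least 2-fold higher. A difference of at least 1.5-fold was shown by 5 genes, PsbO, plastocyanin, PetC, ferredoxin 1 and leaf FNR2, against 4.60% of annotated loci. Scaling each library to its FPKM sum over all transcripts put PsbR just below control, at -0.04, and left the other 9 above it.

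Comparing high fluence with control asked the same of seedlings described as significantly damaged. As deposited, 7 genes were higher and 3 lower than control, with a median log2 ratio of 0.29, where 36.5% of annotated loci were higher and their median was -0.15. The lower genes were PsbR at -1.60, PsbS1 at -0.56 and ferredoxin 1 at -0.37. The last 2 were above control, at 0.21 and 0.49, when libraries were scaled to their FPKM sum over all transcripts. PsbR alone was at least 2-fold lower, as were 5.20% of annotated loci, and none of the 10 was at least 2-fold higher, where 2.37% of annotated loci were. With equal sums over all transcripts PsbR was at -0.83 and 6 genes were past 2-fold higher, where 24.6% of annotated loci were. The leaf FNRs lay near that threshold. Leaf FNR2 passed it at 1.06 with upper-quartile scaling, as did 4.02% of annotated loci. Both passed it, at 1.01 and 1.07, with equal sums over annotated loci, as did 4.19% of annotated loci. As deposited, the leaf FNRs were the genes at least 1.5-fold higher, against 7.43% of annotated loci.

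Comparing the irradiated libraries with each other, 8 of the 10 genes were lower at high than at low fluence, as were 59.8% of annotated loci. PsbR, at a log2 ratio of -1.70, and ferredoxin 1, at -1.05, were at least 2-fold lower, against 2.97% of annotated loci. Ferredoxin 1 did not pass 2-fold under any of the other 4 scalings, with -0.98 for median-of-ratios scaling and -0.05 for equal sums over all transcripts at the extremes. PsbS1 at -0.74 and PsbO at -0.61 were the others past 1.5-fold, against 10.8% of annotated loci. Only leaf FNR1 at 0.29 and leaf FNR2 at 0.16 were higher. This split depended on the scaling: 6 genes were lower with upper-quartile scaling and 2, PsbR and ferredoxin 1, with scaling to the sum over all transcripts. The median log2 ratio of annotated loci was then 0.11 and 0.88, so more of them were higher than lower. Their share that was lower was not counted.

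The orders of the 3 libraries, as deposited, divided the genes in 3. Low fluence was highest and control lowest for 5 genes, PsbO, PsbP, PsbS2, plastocyanin and PetC, an order held by 8.92% of annotated loci. Low fluence was highest and high fluence lowest for PsbR, PsbS1 and ferredoxin 1, an order held by 15.3%. The leaf FNRs had the order high fluence, low fluence, control, held by 16.3%. Low fluence was the highest library for 8 genes as deposited, for 6 with upper-quartile scaling and for 1 with equal sums over all transcripts. The median log2 ratio of annotated loci between high and low fluence was then -0.09, 0.11 and 0.88. The share of annotated loci highest at low fluence was not counted under the other scalings. All comparisons with control share the single control library, so a low value in it would raise both ratios of a gene.

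The scaling of the libraries shifted all loci together. Between high fluence and control, the median log2 ratio of annotated loci moved by 0.11 with median-of-ratios scaling, 0.18 with upper-quartile scaling, 0.19 with equal sums over annotated loci and 0.83 with equal sums over all transcripts. In any comparison of libraries, values relative to the median locus moved by at most 0.16 over these 4 scalings and the deposited one. The largest move was that of PsbS2 between high and low fluence. Each scaling divides every locus of a library by the same number, which cancels against the median locus except for the added pseudocount. The ranges that follow are therefore narrow by construction and are no test of the scaling. The median of the 10 genes lay 0.66 to 0.67 above the median locus at low fluence and 0.44 to 0.47 above it at high fluence, on the log2 scale. Relative to the median locus, PsbR lay between -1.51 and -1.45 at high fluence, ferredoxin 1 between -0.22 and -0.19, leaf FNR1 between 0.96 and 0.98, and leaf FNR2 between 1.02 and 1.04. PsbO lay between 1.02 and 1.03 at low fluence and between 0.50 and 0.53 at high fluence.

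**Figure D3:**
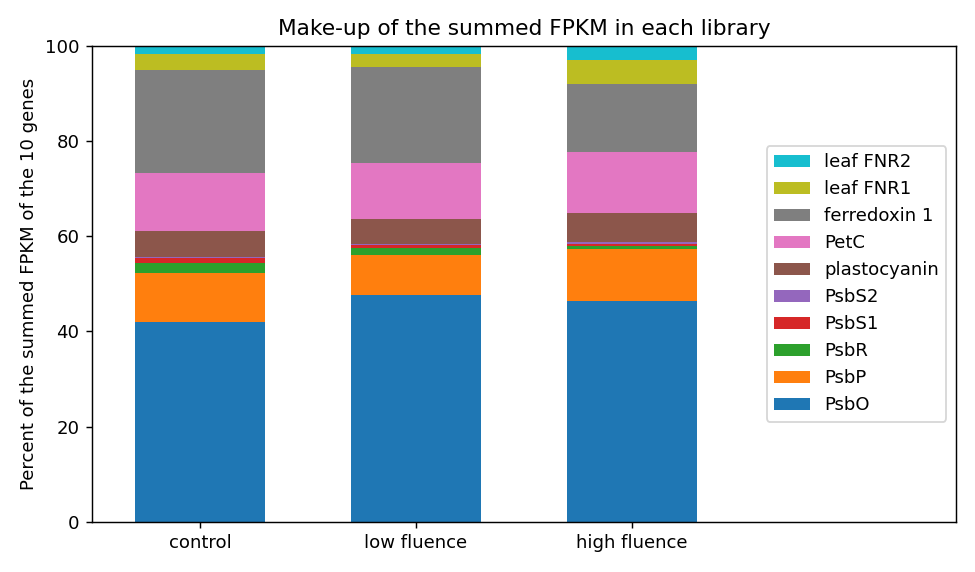
Share of each gene in the summed FPKM of the 10 genes, in percent, for each library. PsbO makes up 42.0% in control seedlings, 47.7% after low and 46.3% after high fluence, while ferredoxin 1 makes up 21.6%, 20.1% and 14.4%.

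Shares of the summed FPKM show the unequal change without any scaling between libraries. Ferredoxin 1 took 21.6% of the sum in control seedlings, 20.1% after low and 14.4% after high fluence, and PsbR 2.26%, 1.40% and 0.583%. Leaf FNR1 took 3.29%, 2.76% and 5.04%, and leaf FNR2 1.79%, 1.74% and 2.90%, both with their largest share after high fluence. The shares of PetC were 12.3%, 11.7% and 12.7%, and those of plastocyanin 5.36%, 5.44% and 6.24%.

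The most similar groups of the pathway were set beside these genes. They were 9 loci of nuclear photosystem I core subunits and 8 loci of Lhcb proteins, which bind the chlorophyll of the photosystem II antenna. Both lists were assigned by locus number from general knowledge of the rice annotation, and the tables do not name these loci. At low fluence the groups were alike in direction. All 9 photosystem I loci and all 8 Lhcb loci were above control, as were 40.6% of annotated loci. The median log2 ratios of these lists were 0.70 and 0.38, beside 0.60 for the 10 genes here. At high fluence all 8 Lhcb loci were at least 2-fold below control, with a median of -3.12. So were 2 of the 9 photosystem I loci, a list with a median of -0.51, and 5.20% of annotated loci. With equal sums over all transcripts, 7 of 8 Lhcb loci were still at least 2-fold lower, as were 1.00% of annotated loci. With that scaling the median was 0.34 for photosystem I, with 2 of 9 loci at least 2-fold lower, and -2.32 for Lhcb. For the 10 genes here it was 1.15, with 0 at least 2-fold lower. As deposited, 1 of the 10 genes here was at least 2-fold lower, and their median was 0.29. The summed FPKM of the Lhcb loci was 1.35 times that of the 10 genes in control seedlings, 1.08 times after low and 0.131 times after high fluence. That of the photosystem I loci was 0.714, 0.683 and 0.345 times. Relative to the median locus, the high fluence medians lay between -3.01 and -2.97 for Lhcb and between -0.36 and -0.34 for photosystem I over the 5 scalings. These ranges, too, are narrow by construction. With 1 library per group, these differences between lists were not tested.

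**Figure D4:**
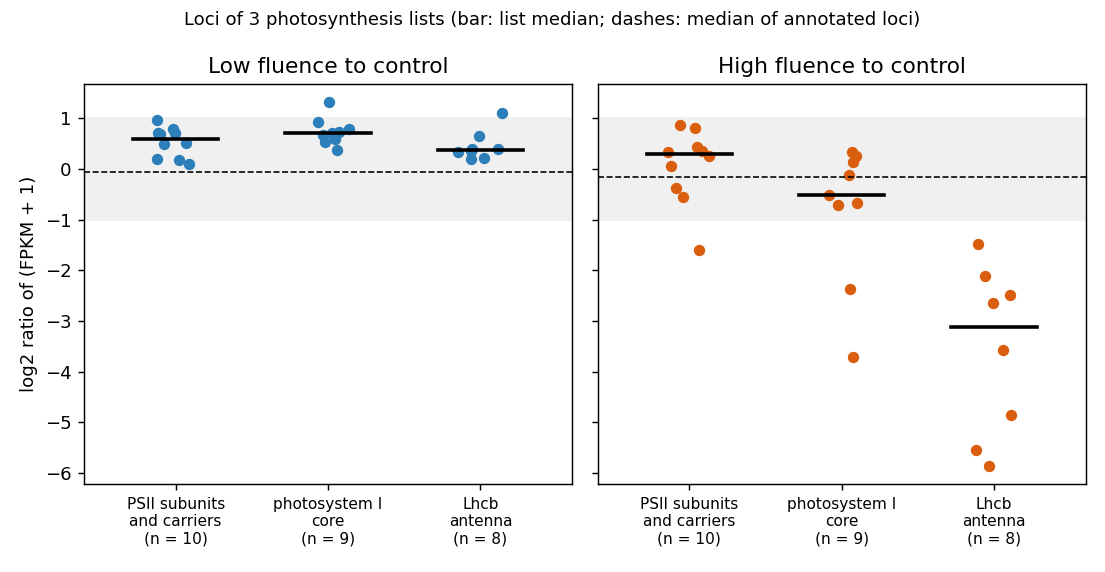
Log2 ratio of (FPKM + 1) to control for each locus of the 10 genes (PSII subunits and carriers), the 9 photosystem I loci and the 8 Lhcb loci, with list medians as bars and the median of annotated loci as a dashed line. As deposited, the list medians are 0.60, 0.70 and 0.38 at low fluence and 0.29, -0.51 and -3.12 at high fluence. With equal sums over all transcripts, those at high fluence are 1.15, 0.34 and -2.32.

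The loci whose ratios to control lay nearest to the median of the 10 genes were found among the 2104 other annotated loci that averaged 50 FPKM or more. LOC_Os08g17600 on chromosome 8, at 146 FPKM in control seedlings, 226 after low and 178 after high fluence, was nearest, at a distance of 0.03 on the log2 scale. LOC_Os01g38490 on chromosome 1 stood at 101, 155 and 122 FPKM, and LOC_Os07g36080 on chromosome 7 at 167, 259 and 201 FPKM. Likeness was measured over the 3 libraries only, and the tables give these loci no name.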

How the data were processed

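The authors deposited FPKM, 1 value per transcript and library (per the file headers). The submitters' processing notes name TopHat2 2.0.5. For the FPKM program, genome build, annotation and strandedness, the sources used here give no name. The tables hold 87523 transcripts each, including assembled ones with the prefix CUFF.

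FPKM was summed over the transcripts of an identifier, giving 70123 features, and compared as log2 ratios after adding a pseudocount of 1, so changes of low genes are understated. A difference was counted at 2-fold. All 10 genes were described. The named loci outside the list were the 3 nearest to its median pattern. The genes, lists and rules were chosen with earlier results of these data known. FPKM comes without total counts, so depth is unknown. Steps between low values (under 0.1 FPKM, within 1% of ratios of whole numbers up to 2) matched a low fluence depth of 0.498 times the control for 61.6% of 203 loci and of 0.997 times for 57.6%. For high fluence, 1.35 times matched 58.7% of 458 loci and 0.678 times 55.9%, so relative depth was not settled. Alternatives were 4 scalings, 2 pseudocounts, the highest transcript alone, added assembled neighbours, and other minimum means and folds. Scripts used Python 3.11.15, pandas 2.3.3 and NumPy 2.4.6. The counting code was run on simulated data without noise, which checks the code only and not the reliability of the counts.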

Additional observations from a re-analysis of the deposited data

How the results depend on the processing

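Each group has 1 library, so depth and replicate spread limit every value, and low genes such as PsbS1 and PsbS2 most. No paired analysis was possible because each group has 1 library and no test was made. Pseudocounts of 0.1 and 5 and the highest transcript alone left all counts of genes and the signs of all gene ratios as they were. The count of genes at least 2-fold above control at low fluence was 0 as deposited (0.928% of annotated loci). It was 1 (PsbO) with median-of-ratios scaling (1.13%) and with equal sums over annotated loci (1.14%), and 5 at a fold of 1.5 (4.60%). At high fluence it was 0 as deposited (2.37% of annotated loci), 1 with upper-quartile scaling (4.02%) and 2 with equal sums over annotated loci (4.19%). It was 6 with equal sums over all transcripts (24.6%) and 2 at a fold of 1.5 (7.43%). The count at least 2-fold below control at high fluence was 1 as deposited (5.20% of annotated loci) and 0 with equal sums over all transcripts (1.00%). It was also 0 among the 5 genes with a mean of at least 50 FPKM, which leaves out PsbR (6.83% of annotated loci with that mean). The count at least 2-fold lower after high than after low fluence was 2 as deposited (2.97% of annotated loci). It was 1 with median-of-ratios scaling (2.36%), upper-quartile scaling (1.68%) and equal sums over annotated loci (1.95%). A minimum mean of 50 FPKM (3.70% of annotated loci with that mean) and a fold of 3 (0.788%) also gave 1. A fold of 1.5 gave 4 (10.8%). Equal sums over all transcripts gave 0 (0.507%), while 2 genes and 37.0% of annotated loci were at least 2-fold higher. Of the genes higher at high than at low fluence by any amount, 2 as deposited, there were 4 with upper-quartile scaling, 8 with equal sums over all transcripts and 0 of 5 at a minimum mean of 50 FPKM. The median log2 ratio of annotated loci, -0.09 as deposited, was then 0.11, 0.88 and, at that minimum, -0.18. That minimum left 5 of 5 genes above control at low fluence and 4 of 5 at high fluence. The median log2 ratio to control of annotated loci with that mean was -0.08 at low and -0.26 at high fluence. More of them were thus lower than higher, and their share above control was not counted. Equal sums over all transcripts moved the median log2 ratio of the genes to 1.15 for high fluence to control and to 0.59 for high to low fluence. It changed the sign of 9 of 30 gene ratios, upper-quartile scaling of 2 and added assembled neighbours of 2. The cause of these differences was not tested.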
